A study of Mus musculus with 4 samples.

Results

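The genes described here encode the autophagy machinery, the proton pump of the lysosome (the V-ATPase), lysosomal membrane glycoproteins and the transcription factors Tfeb and Tfe3. They were taken by symbol, as the genes whose name begins with Atg and a digit, Atp6v0, Atp6v1, Atp6ap, Gabarap or Map1lc3, together with Lamp1 to Lamp5, Ulk1 to Ulk4, Becn1, Tfeb, Tfe3, Wipi1 and Wipi2. This gave 57 genes of 18194 with a value, each read from its brightest probe set by the mean of the 4 arrays. Lamp3 shared its probe set with another gene and was not analysed here. The 57 genes were covered by 127 probe sets. No filter on low values was applied, so all 57 entered the test, and 42 of them lay above the median level of all genes.

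Total RNA from 2 stages of SFEBq was measured on 4 Affymetrix arrays, 2 per stage: mouse embryonic stem cells (day 0) and epiblast-like tissue (day 3). SFEBq is a serum-free culture in which dissociated stem cells quickly re-aggregate and float as embryoid body-like aggregates. All 4 samples carried the same cell type label, differentiated mouse embryonic stem cells, and no genotype, cell line or treatment other than the culture was given in the sources used here. Stem cells before the culture and aggregates in it differ in medium and form as well as in cell state, and these cannot be told apart. Nothing said that the duplicates came from separate cultures, so the p-values rest on a spread between duplicates that may be technical, and the number of arrays limits the precision.

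Autophagy encloses cytoplasm in a double membrane, the autophagosome, which then fuses with a lysosome. The Ulk kinase complex starts it, the class III phosphatidylinositol 3-kinase marks the membrane, Atg9 and Atg2 proteins supply lipid, and a chain of ubiquitin-like conjugation attaches the Atg8 proteins (the LC3 and GABARAP families) to the growing membrane. The lysosome is acidified by the V-ATPase, whose V1 sector hydrolyses ATP and whose V0 sector carries protons across the membrane. Tfeb and Tfe3 activate lysosomal and autophagy genes when they are in the nucleus, through a DNA element named CLEAR, and the kinase complex mTORC1 at the lysosome keeps them out of it. In mouse embryonic stem cells nuclear Tfe3 is known to hold cells in the naive pluripotent state, and folliculin (Flcn) with its partners Fnip1 and Fnip2 is known to keep Tfe3 in the cytoplasm.

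Between day 0 and day 3, called pump genes were all higher, while genes of the early steps of autophagy were called lower more often than higher. Of the 57 genes, 21 rose, 14 fell and 22 were not called, where a call is an adjusted p below 0.05 by limma with Benjamini-Hochberg adjustment over all 18194 genes. Over all genes 42.3% were called, 20.9% higher and 21.4% lower, against 61.4% of these 57. Brighter genes were called more often, with 62.8% of the genes above the median level called (29.0% higher and 33.7% lower), against 32 of the 42 members above it. The median log2 difference, day 3 minus day 0, was 0.063 for the 57 genes and 0.011 for all genes. Among the members, 4 rose and 4 fell by 2-fold or more, where 5.93% of all genes were at least 2-fold higher and 4.25% at least 2-fold lower. Values of day 0 and day 3 were fully separated for 42 of the 57 members, and for 69.0% of all genes.

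By role, calls were uneven, and whether roles differ was not tested. Of 22 pump and accessory genes, 11 rose and 0 fell, with a median log2 difference of 0.26. Of 25 genes of autophagy initiation, membrane supply and conjugation, 4 rose and 12 fell, with a median of -0.25. The Atg8 genes and the factors Tfeb and Tfe3 went both ways within their families. Among the members above the median level, 11 of 16 pump genes rose, and 11 of 17 genes of the early steps fell while 2 rose.

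**Figure D1:**
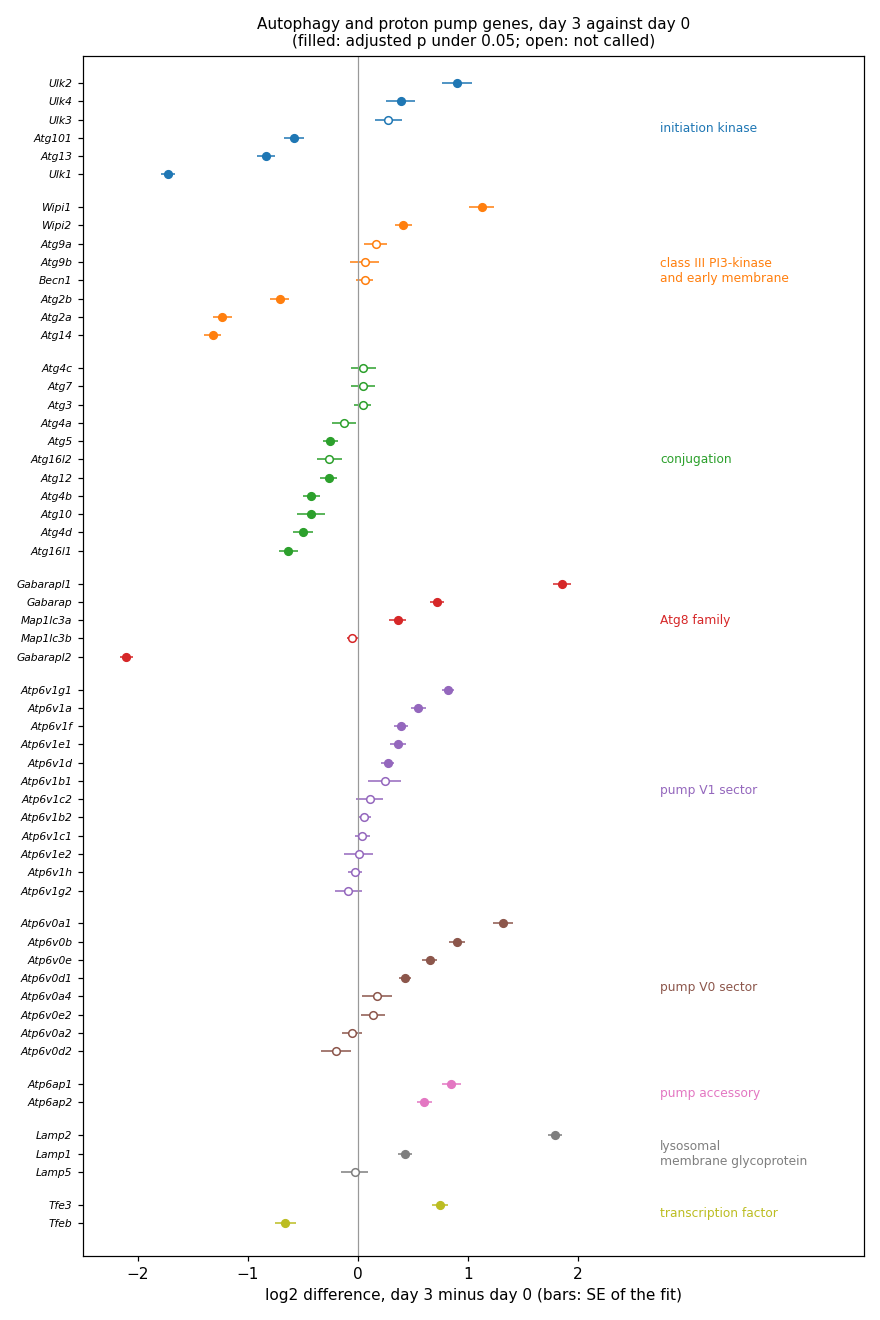
Log2 difference between day 3 and day 0 for each of the 57 genes, grouped by role, with the standard error of the fit as a bar; filled points were called at an adjusted p under 0.05. Every called pump gene lies to the right of 0, the largest rise is that of Gabarapl1 (1.86) and the largest fall that of Gabarapl2 (-2.10).

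**Figure D2:**
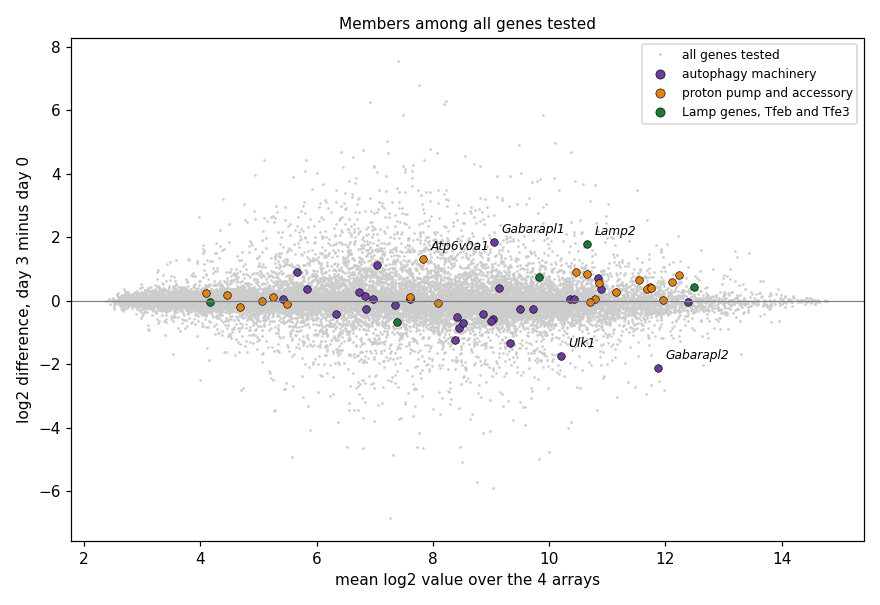
Log2 difference (day 3 minus day 0) against the mean log2 value over the 4 arrays for all 18194 genes (grey) and for the members by kind (coloured). The called pump genes are mostly bright and lie slightly above 0, and the members stay within -2.10 and 1.86, far inside the range of all genes (-6.84 to 7.57).

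The promoters of 4 pump genes that rose are shown because they hold TCACGTGA, the core of the CLEAR element, or the shorter CACGTG within it. The full element was not searched for. Sequences were taken from RefSeq (GRCm38.p6), which matched 47 of the 57 genes, each with 250 bases before and 50 from its start. The stretches run 5′ to 3′ on the strand of the gene, from 150 bases before the start to 20 bases from it, and capitals mark TCACGTGA or, in Atp6v0b, CACGTG. Atp6v0d1 lies at chr8:105566045-105566214 (minus strand), Atp6v0e at chr17:26676246-26676415 (plus strand), Atp6v1a at chr16:44139240-44139409 (minus strand) and Atp6v0b at chr4:117887310-117887479 (minus strand).
Atp6v0d1: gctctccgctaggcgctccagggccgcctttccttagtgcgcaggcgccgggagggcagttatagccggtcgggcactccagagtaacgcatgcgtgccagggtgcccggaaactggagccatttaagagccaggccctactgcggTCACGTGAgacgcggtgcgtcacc
Atp6v0e: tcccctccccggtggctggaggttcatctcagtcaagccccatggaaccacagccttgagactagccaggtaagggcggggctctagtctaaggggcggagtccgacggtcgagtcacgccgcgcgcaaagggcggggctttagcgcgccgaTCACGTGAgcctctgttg
Atp6v1a: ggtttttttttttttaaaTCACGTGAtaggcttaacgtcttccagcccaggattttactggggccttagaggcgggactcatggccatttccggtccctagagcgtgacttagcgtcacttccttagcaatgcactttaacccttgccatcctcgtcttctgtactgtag
Atp6v0b: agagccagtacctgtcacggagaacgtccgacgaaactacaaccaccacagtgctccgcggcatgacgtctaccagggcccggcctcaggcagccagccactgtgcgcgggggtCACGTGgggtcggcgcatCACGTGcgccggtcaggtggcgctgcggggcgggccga

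The letters TCACGTGA read the same on both strands and contain the shorter CACGTG. In the whole windows of 300 bases they occurred in 3 of 10 pump and accessory genes that rose and have a promoter entry (Atp6v0d1, Atp6v0e and Atp6v1a), in 0 of 6 that were not called, and in 1 of 31 other members (Atg3, which was not called). Of those 6 pump genes, 5 lay at or below the median level, and Atp6v0a2, Atp6v1b2, Atp6v1c1 and Atp6v1h, which were above it and not called, had no promoter entry, so called and not called pump genes of like level cannot be compared here. Over all 27025 genes with a promoter entry, whatever their level, 1.12% held them, against 8.51% of the 47 members. No share was taken among genes of a level like that of the members. The shorter motif was found in 9 of the 47 members (19.1%) and in 8.09% of all genes. It was in 4 of the 10 pump and accessory genes that rose, in 0 of the 6 not called and in 5 of the 31 other members. Of those 5, Lamp1 rose, Atg14 and Atg5 fell, and Atg3 and Atg7 were not called. Atp6v0b held the shorter motif at 2 places, from -36 to -31 and from -18 to -13 relative to its start. In Atp6v0d1 the longer motif spans the start, from base -4 to base 4, in Atp6v0e it lies at bases 3 to 10, and in Atp6v1a from base -132 to base -125. A match describes these letters only and is not evidence of binding.

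The kinase that starts autophagy fell. Ulk1, the main initiating kinase, stood at 11.09 and 11.04 (log2) on the day 0 arrays and at 9.33 on both day 3 arrays. The days were clearly separated, and the difference was -1.73 ± 0.064 on the log2 scale (SE of the fit, limma adjusted p = 8.9e-09), or 3.32-fold lower. Atg13, the adaptor that activates Ulk1, went from 8.89 and 8.84 to 8.03 on both day 3 arrays, a difference of -0.84 ± 0.081. Atg101, which stabilises Atg13, went from 9.20 and 9.43 to 8.72 and 8.76, a difference of -0.58 ± 0.090. Ulk1, Atg13 and Atg101 were lower on both day 3 arrays than on either day 0 array.

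Ulk2, the paralogue of Ulk1 that can take its place in the complex, moved the other way. It was at 5.33 and 5.10 at day 0 and at 6.24 and 6.01 at day 3, a rise of 0.91 ± 0.14 (adjusted p = 0.00030, limma). Its levels lay below the median level of all genes on every array, and 2 of its other 3 probe sets were called higher as well, by 1.03 and 0.77. Ulk4 (0.39 ± 0.13), a distant relative with no settled part in autophagy, also rose, and Ulk3 (0.28 ± 0.12) was not called. The call of Ulk4 was lost without day 0 replicate 2 or either day 3 array (0.28, 0.49 and 0.29), and from the mean of its probe sets (0.26). In all, 2 of the 6 genes of initiation rose, 3 fell and 1 was not called. Over all genes 20.9% rose and 21.4% fell. Above the median level, where 3 of the 6 lay, 29.0% of all genes rose and 33.7% fell.

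**Figure D3:**
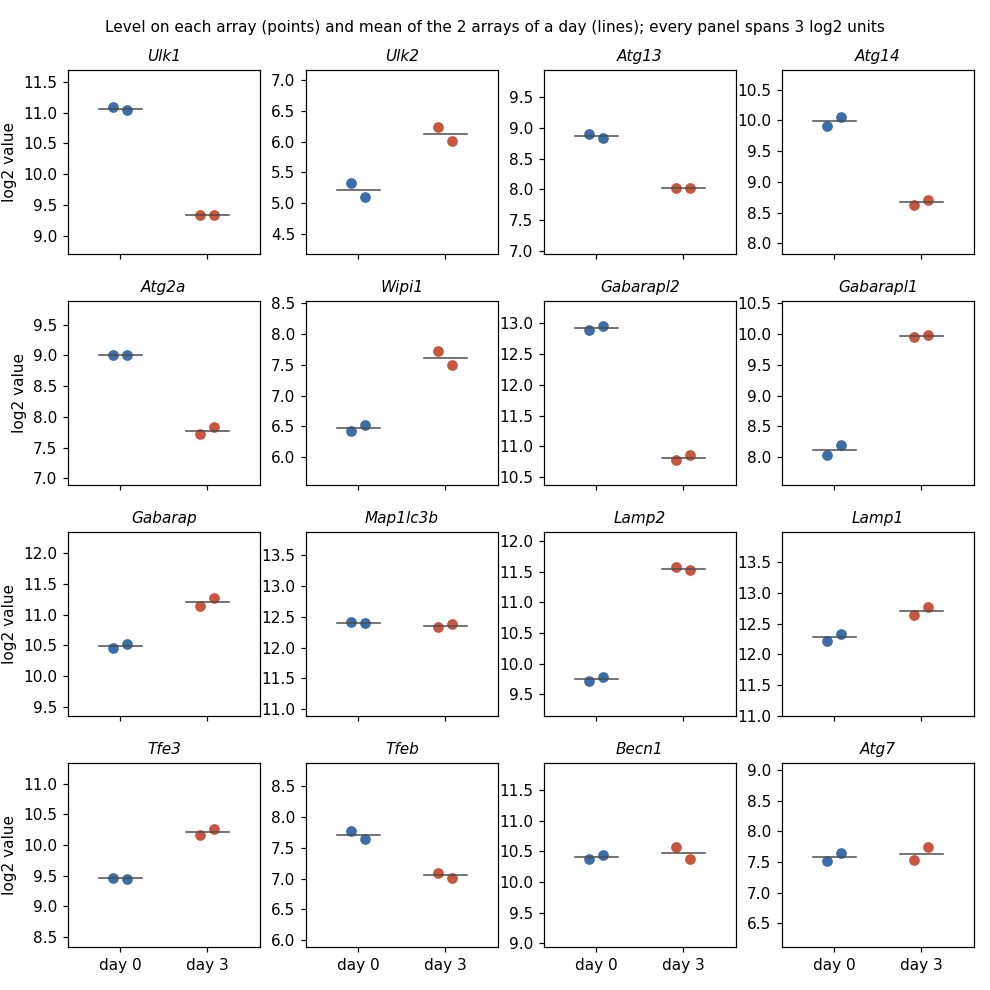
Log2 value of 16 members on each array (points) and the mean of the 2 arrays of each day (lines), with every panel spanning the same 3 log2 units. Ulk1, Atg14 and Gabarapl2 fall and Gabarapl1 and Lamp2 rise by far more than the gap between duplicates, while the points of Becn1 and Atg7 overlap between days.

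In the next step, the subunit that directs the class III phosphatidylinositol 3-kinase to autophagy fell and its common partner was not called. Atg14, that subunit, stood at 9.92 and 10.05 at day 0 and at 8.62 and 8.71 at day 3, a fall of 1.32 ± 0.079 (SE, adjusted p = 2.9e-07, limma), or 2.50-fold. Becn1, which sits in this kinase complex whether or not Atg14 does, was at 10.37 and 10.44 and at 10.57 and 10.37, and its arrays overlapped between days (0.063 ± 0.078, adjusted p = 0.58). The other 4 probe sets of Becn1 were not called either. The sign of its difference turned without probe sets ending in _x_at or _s_at and without day 3 replicate 1.

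Both Atg2 genes, whose proteins pass lipid into the growing membrane, fell. Atg2a went from 9.001 and 9.01 to 7.71 and 7.83, a fall of 1.23 ± 0.085 or 2.35-fold (adjusted p = 8.3e-07, limma). Atg2b went from 8.80 and 8.93 to 8.21 and 8.10, with a difference of -0.71 ± 0.088, and of -0.29 from the mean of its probe sets. Of the scramblase genes, Atg9a was at 6.73 and 6.76 and at 6.88 and 6.94 and was not called (0.16 ± 0.10), nor was Atg9b (0.063 ± 0.13). Another probe set of Atg9b was called lower (-0.60).

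Wipi1 and Wipi2, which encode readers of the lipid made by the kinase, rose. Of their relatives outside the symbols used here, Wdr45 fell by 0.90 and Wdr45b rose by 0.25. Wipi1 stood at 6.43 and 6.53 at day 0 and at 7.72 and 7.49 at day 3, a rise of 1.13 ± 0.11 or 2.19-fold (adjusted p = 1.5e-05, limma). Of the other 5 probe sets of Wipi1, 3 were called higher, 0 lower and 2 not, and the mean of its probe sets gave 0.59. Wipi2 rose by 0.41 ± 0.077, but the mean of its probe sets gave 0.15 and was not called. Its other 2 probe sets were not called. The brighter of them, at a mean of 9.02 at day 0 against 8.93 for the probe set read, differed by -0.059. Of 8 genes of this step, 2 rose, 3 fell and 3 were not called. Above the median level, where 6 of the 8 lay, 29.0% of all genes rose and 33.7% fell.

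No gene of the conjugation step rose. Of 11 genes, 6 fell and 5 were not called, with differences from -0.63 to 0.050 and a median of -0.26. This is 54.5% called, against 42.3% of all genes (20.9% higher and 21.4% lower). Above the median level, where 8 of the 11 lay, 62.8% of all genes were called (29.0% higher and 33.7% lower). Atg16l1, the scaffold that places the conjugation at the membrane, fell most, from 9.36 and 9.27 to 8.60 and 8.77 (-0.63 ± 0.086, adjusted p = 0.00014, limma), and by 0.38 from the mean of its probe sets. The proteases Atg4d (-0.50 ± 0.091) and Atg4b (-0.42 ± 0.076), which trim Atg8 proteins, fell as well, and neither was called from the mean of its probe sets (-0.25 and -0.12).

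The core enzymes of conjugation had small differences or none that was called. Atg7, the activating enzyme of the chain, was at 7.52 and 7.65 at day 0 and at 7.52 and 7.75 at day 3 (0.049 ± 0.11, adjusted p = 0.77, limma), and Atg3, which passes Atg8 proteins to lipid, differed by 0.045 ± 0.078. The sign for Atg7 turned without day 0 replicate 1 and without day 3 replicate 2. Atg5, which is joined to Atg12, was at 9.82 and 9.87 and at 9.57 and 9.62, a small fall of 0.25 ± 0.068 (adjusted p = 0.012). Atg12 (-0.27 ± 0.078) and Atg10 (-0.42 ± 0.13), the enzyme that joins them, were also called lower. Without day 3 replicate 1, or without day 3 replicate 2, Atg5, Atg10 and Atg12 each lost the call, so 3 of 11 genes fell in either case. Atg10 lost it without day 0 replicate 2 too (-0.28), and Atg12 without day 0 replicate 1 (-0.18) and without the intensity trend (-0.27). Atg16l2 (-0.26), Atg4a (-0.13) and Atg4c (0.050) were not called.

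The largest changes of the whole set were in the Atg8 family, in opposite directions within the GABARAP branch. Gabarapl2, known as GATE-16, was at 12.89 and 12.95 at day 0 and at 10.77 and 10.86 at day 3. This difference of -2.10 ± 0.058 (SE, adjusted p = 1.4e-09, limma), or 4.30-fold lower, placed it at rank 170 among the falls of all 18194 genes. Its other probe set fell by 1.79. Gabarapl1 was at 8.03 and 8.203 at day 0 and at 9.96 and 9.98 at day 3, a rise of 1.86 ± 0.083 (adjusted p = 3.5e-08), or 3.62-fold, and its other probe set rose by 1.92. In both genes the gap between days was far larger than that between duplicates.

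Gabarap, the founding member of the branch, rose from 10.45 and 10.52 to 11.14 and 11.27 (0.72 ± 0.067, limma adjusted p = 8.0e-06). In the LC3 branch, Map1lc3a rose by 0.36 ± 0.076, a call that was lost without probe sets ending in _x_at or _s_at (0.22). Map1lc3b, the member most used to follow autophagy, stood at 12.41 and 12.40 and at 12.33 and 12.39 (-0.050 ± 0.051, adjusted p = 0.50). Its probe sets differed, since 2 of the other 3 were called higher, by 0.28 and 0.34, and the mean of its probe sets gave 0.12, which was not called. Of the 5 genes of the family, 3 rose, 1 fell and 1 was not called. All 5 lay above the median level, where 29.0% of all genes rose and 33.7% fell.

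In the pump, every called gene rose. Of 12 V1 genes 5 rose and 7 were not called, of 8 V0 genes 4 rose and 4 were not called, and both accessory genes rose. In all, 50% of these 22 genes were called, against 42.3% of all genes (20.9% higher and 21.4% lower). Above the median level 68.8% of 16 pump genes were called, all higher. Of all genes above that level, 62.8% were called (29.0% higher and 33.7% lower). The rises lay between 0.27 and 1.32, and the median over the 11 called genes was 0.61. In the same arrays 9 of 10 visceral endoderm markers rose, 0 fell and Gata6 was not called, and their summed linear signal went from between 2217 and 2429 at day 0 to between 21762 and 24289 at day 3. None of the 10 markers was below the first quartile on all day 0 arrays, but Apob was below it on day 0 replicate 1 (4.28 against 4.30). Visceral endoderm is an extra-embryonic epithelium rich in endocytic vesicles and lysosomes, and its part in the changes of the pump, Lamp and hydrolase genes was not tested. In bulk RNA, more cells of a type and more RNA per cell cannot be told apart.

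**Figure D4:**
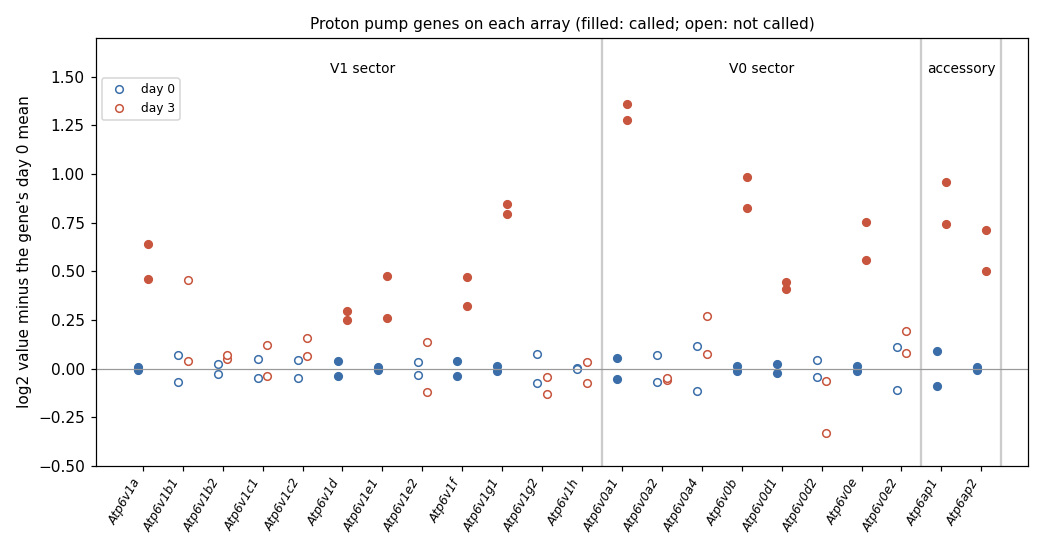
Log2 value of each pump gene on each array minus the gene's day 0 mean (blue: day 0; red: day 3; filled: called). The day 3 points of the 11 called genes all lie above the day 0 points, Atp6v0a1 (1.32) being the farthest, and the open genes scatter around 0.

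In the membrane sector, an isoform of the a subunit had the largest rise. Atp6v0a1, which helps to place the pump in its compartment, stood at 7.11 and 7.22 at day 0 and at 8.53 and 8.44 at day 3. The rise was 1.32 ± 0.093 (SE, adjusted p = 9.8e-07, limma), or 2.50-fold. The mean of its 4 probe sets rose by less, by 0.53. The isoforms Atp6v0a2, at 8.04 and 8.19 and at 8.06 and 8.07, and Atp6v0a4 were not called (-0.052 ± 0.090 and 0.17 ± 0.14). The remaining a isoform, Tcirg1, lies outside the symbols used here and rose by 0.58 ± 0.11.

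Atp6v0b, Atp6v0e and Atp6v0d1 rose. Atp6v0b, a subunit of the proton-carrying ring, went from 10.0003 and 10.02 to 10.84 and 11.00 (0.90 ± 0.070, limma adjusted p = 2.1e-06), and its other 2 probe sets rose by 0.71 and 0.39. Atp6v0e went from 11.20 and 11.23 to 11.77 and 11.97 (0.66 ± 0.070), and Atp6v0d1, the stalk subunit that links the ring to V1, from 11.50 and 11.55 to 11.94 and 11.97 (0.43 ± 0.054). Of the promoters shown above, those of Atp6v0d1 and Atp6v0e hold TCACGTGA and that of Atp6v0b only the shorter CACGTG. Atp6v0c, which encodes the main ring subunit, was not analysed here. Their paralogues Atp6v0e2 (0.14 ± 0.11) and Atp6v0d2 (-0.20 ± 0.13), the latter known from osteoclasts, were not called.

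In the V1 sector, the catalytic subunit and some subunits of the stalks rose while other subunits were not called. Atp6v1g1, a stator subunit, rose most, from 11.81 and 11.84 to 12.62 and 12.67 (0.82 ± 0.052, adjusted p = 4.2e-07, limma), or 1.77-fold. Atp6v1a, which hydrolyses ATP, went from 10.59 and 10.58 to 11.05 and 11.23 (0.55 ± 0.071). Atp6v1f (0.40 ± 0.064) and Atp6v1d (0.27 ± 0.060), of the central stalk, and Atp6v1e1 (0.37 ± 0.072), another stator subunit, rose by less. The call of Atp6v1e1 was lost from the mean of its probe sets (0.21) and without probe sets ending in _x_at or _s_at (0.21).

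Several V1 subunits that the pump needs were not called. Atp6v1b2, the partner of the catalytic subunit, was at 10.73 and 10.78 and at 10.80 and 10.82 (0.059 ± 0.060, adjusted p = 0.49, limma). Atp6v1c1 (0.043 ± 0.066) and Atp6v1h (-0.022 ± 0.064), which hold V1 and V0 together, overlapped between days. Another probe set of Atp6v1h, at a mean of 5.499 at day 0 and 5.06 at day 3, was called lower (-0.44). The paralogues Atp6v1b1, Atp6v1c2, Atp6v1e2 and Atp6v1g2, known from kidney, testis, brain and other specialised tissues, had differences from -0.087 to 0.24 and were not called. With Atp6v0a4 and Atp6v0d2 they made up the 6 pump genes at or below the median level, where no gene was called.

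Both accessory genes of the pump rose. Atp6ap1, whose protein guides the assembly of V0, went from 10.31 and 10.14 to 10.97 and 11.18 (0.85 ± 0.086, adjusted p = 1.6e-05, limma). Atp6ap2, also named the prorenin receptor, went from 11.81 and 11.80 to 12.30 and 12.51 (0.61 ± 0.069), and its other 2 probe sets rose by 0.64 and 0.67. In both genes every day 3 array was above every day 0 array.

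Of the glycoproteins that line the lysosomal membrane, Lamp1 and Lamp2 rose. Lamp2, which also serves chaperone-mediated autophagy through an isoform, was at 9.72 and 9.78 at day 0 and at 11.57 and 11.52 at day 3, a rise of 1.79 ± 0.062 (SE, adjusted p = 5.8e-09, limma), or 3.47-fold. All 4 of its probe sets were called higher, by 0.62, 1.32, 1.79 and 1.87. Lamp1 went from 12.22 and 12.34 to 12.64 and 12.78, a rise of 0.43 ± 0.063 (adjusted p = 0.00024). Whether the rises of Lamp1 and Lamp2 differ was not tested. Lamp5 was at 4.20 and 4.17 and at 4.24 and 4.07, below the first quartile of the arrays (4.30 to 4.33), and was not called. Cd68, also known as Lamp4, belonged to the marker list of macrophages and fell by 1.29 ± 0.13. The other 4 markers of that list (Ptprc, Csf1r, Adgre1 and Itgam) were not called, and Ptprc and Itgam lay below the first quartile on all arrays.

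The transcription factors of the pathway moved apart. Tfe3 rose from 9.47 and 9.45 to 10.16 and 10.26, by 0.75 ± 0.070 (SE, adjusted p = 8.4e-06, limma) or 1.68-fold. Tfeb fell from 7.77 and 7.65 to 7.09 and 7.02, by 0.66 ± 0.099 (adjusted p = 0.00030) or 1.58-fold. For both genes, day 0 and day 3 values were fully separated. An mRNA level does not show where these proteins are in the cell.

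The related factors outside the symbols used here went both ways too. Of 7 measured genes of a list of other regulators, 4 rose, 1 fell and 2 were not called. Above the median level, where 6 of the 7 lay, 29.0% of all genes rose and 33.7% fell. Tfec, a relative of Tfeb known from macrophages, was at 4.51 and 5.28 at day 0 and at 9.43 and 9.66 at day 3, a rise of 4.65 ± 0.20 (SE, adjusted p = 2.9e-08, limma), larger than that of any of the 57 genes. Mitf, the factor of pigment cells in this family, fell from 7.89 and 8.27 to 6.25 and 6.36 (-1.77 ± 0.13), and by 0.91 from the mean of its probe sets. Zkscan3, described as a repressor of autophagy genes, rose by 1.05 ± 0.083, and by 0.66 from the mean of its probe sets. Foxo1 (0.44) and Foxo4 (0.52) rose, and Foxo3 and Ppargc1a were not called.

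Genes that place mTORC1 on the lysosome and control Tfe3 there rose in part. Of 20 measured genes of this list, 9 rose, 4 fell and 7 were not called, with a median of 0.17. This is 65% called. All 20 lay above the median level, where 62.8% of all genes were called (29.0% higher and 33.7% lower). Rragd, a Rag GTPase that recruits Tfeb and Tfe3 to the lysosome, rose most, from 9.92 and 9.59 to 12.23 and 12.20 (2.46 ± 0.093, adjusted p = 1.0e-08, limma), or 5.51-fold. Rragc, its close relative, rose by 0.72 ± 0.070, Fnip2 by 0.75 ± 0.061, Fnip1 by 0.69 ± 0.066 and Flcn by 0.49 ± 0.084. The mean of the probe sets gave 1.55 for Rragd. The kinase gene Mtor itself (-0.017 ± 0.067) and Rraga (0.014 ± 0.064) were not called. Tsc2, Lamtor2, Akt1s1 and Rptor were called lower, by 0.49 at most, and without day 0 replicate 1 or either day 3 array 2 genes of the list were called lower.

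Most lysosomal enzymes and membrane proteins rose. Of 21 measured genes, 15 rose, 2 fell and 4 were not called, with a median of 0.56, against 0.011 for all genes. Above the median level, where 18 of the 21 lay, 29.0% of all genes rose and 33.7% fell. Neu1, a sialidase, rose from 6.21 and 6.42 to 8.59 and 8.91 (2.44 ± 0.13, adjusted p = 9.4e-08, limma), and by 1.19 from the mean of its probe sets. Npc1, the cholesterol exporter of the lysosome, rose by 1.37 ± 0.075, and Hexa (1.34), Lipa (1.22) and Npc2 (1.06) were also at least 2-fold higher. Manba, a mannosidase, fell from 11.83 and 11.97 to 9.20 and 9.13, a difference of -2.73 ± 0.070 or 6.65-fold lower. Glb1, a galactosidase, also fell, by 1.10 ± 0.080. The visceral endoderm markers given above rose in the same arrays, and their part in these rises was not tested.

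Assembly factors and partners of the pump were called in both directions. Of 9 measured genes, 3 rose (Tcirg1, Wdr7 and Vma21), 5 fell and 1 was not called, with a median of -0.33. All 9 lay above the median level, where 29.0% of all genes rose and 33.7% fell. Ncoa7 (-0.56 ± 0.11, adjusted p = 0.0014, limma), whose protein binds the pump, Rogdi (-0.47 ± 0.072) and Dmxl2 (-0.42) fell. The assembly factors Tmem199 (-0.35) and Ccdc115 (-0.33) fell as well. Wdr7 rose by 0.47 ± 0.083, and Dmxl1 was the gene not called (0.023 ± 0.097). Without day 3 replicate 1, 3 genes of the list were called lower.

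Genes of other autophagy proteins went both ways. Of 21 genes, 4 rose, 6 fell and 11 were not called, with a median of -0.16. This is 47.6% called, and 19 of the 21 lay above the median level. Of all genes above that level, 62.8% were called (29.0% higher and 33.7% lower). Vamp8, the SNARE of the lysosome in fusion with the autophagosome, stood out, from 8.27 and 8.43 to 10.07 and 10.31 (1.84 ± 0.095, adjusted p = 9.5e-08, limma) or 3.59-fold. Its partners Stx17 and Snap29 were not called. Wdr45, a relative of the Wipi proteins, fell by 0.90 ± 0.074 and Plekhm1, a tether at the lysosome, by 0.62 ± 0.084, or by 0.34 from the mean of its probe sets. Rb1cc1, the scaffold of the Ulk1 complex, and Pik3c3, the catalytic kinase subunit, were not called (-0.30 ± 0.12 and -0.22 ± 0.089). Without day 3 replicate 2, 2 genes of the list were called higher.

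**Figure D5:**
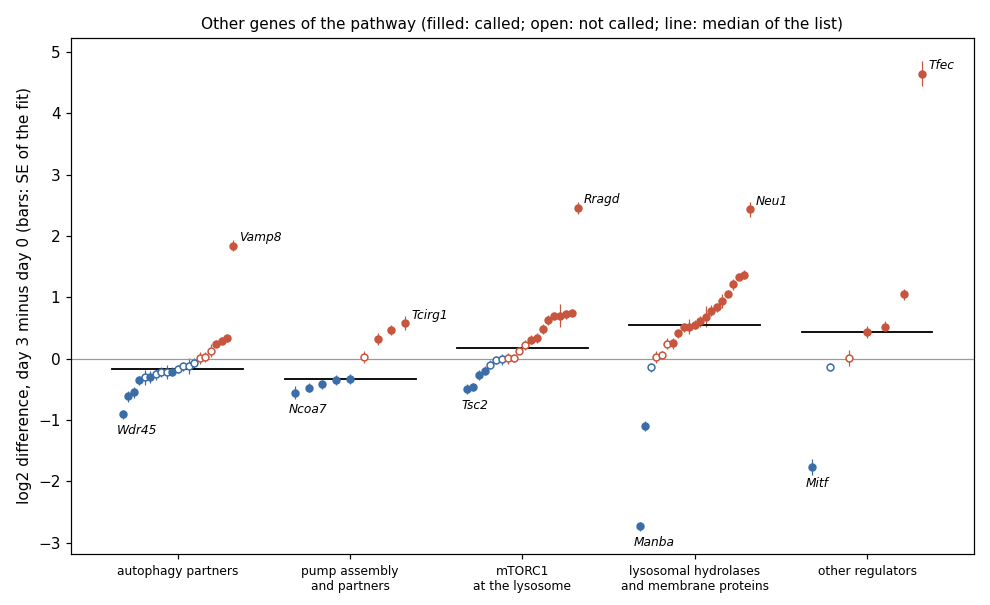
Log2 difference between day 3 and day 0 for the measured genes of 5 lists of the pathway that lie outside the 57, with standard errors as bars, filled where called, and the median of each list as a line. The medians run from -0.33 (pump assembly and partners) to 0.56 (lysosomal hydrolases and membrane proteins), and Tfec (4.65) and Manba (-2.73) are the extremes.

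Calls were compared between probe sets of the same gene. Of the 35 called members, 23 had more than 1 probe set, and their other probe sets were called in a fit over all probe sets. For 15 of these at least 1 other probe set was called in the same direction, and for 0 of them was another called in the opposite direction. Of their 45 other probe sets, 23 were called the same way and 22 were not called. In that fit the probe set read for Ulk4 was itself not called (adjusted p = 0.0504, limma). Among the 22 members not called, 3 had another probe set that was called, which were Map1lc3b, Atg9b and Atp6v1h.

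The labels were checked against markers. All 7 markers of naive stem cells fell, with a median of -3.19, and all 5 measured markers of the epiblast rose, with a median of 2.02. Of the markers shared by both states, Pou5f1 was not called and Sox2 fell. Of 6 fibroblast markers 3 rose (Thy1, Dcn and Col1a2), 0 fell and 3 were not called, and Col3a1 and Postn lay below the first quartile on all arrays. Arrays of the same day correlated at 0.9975 and 0.998 across genes, and arrays of different days at 0.9618 to 0.9619, with genes not being independent replicates. The median gap between duplicates over the 57 genes was 0.083 at day 0 and 0.12 at day 3.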

How the data were processed

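The deposited values were on a log2 scale, for every probe set of 4 arrays. RMA and R 2.13.0 are named in the submitters' processing notes; further settings and the probe-level background are not given in the sources used here. RMA makes the distributions of arrays alike and compresses dim probe sets, so a change in total RNA per cell cannot be seen. Of 45101 probe sets, 34958 had 1 gene symbol in the platform annotation, 932 had several and 9211 none. Only the first were used, and each of 18194 genes was read from the probe set with the highest mean.

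Days were compared in R 4.3.3 with limma 3.58.1 (lmFit, eBayes with an intensity trend, no covariate), two-sided, with Benjamini-Hochberg adjustment over all genes and calls at an adjusted p under 0.05. Each gene had 2 residual degrees of freedom, to which the estimate shared between genes added 8.02. Values in the text are log2, differences are day 3 minus day 0, and errors are standard errors of the fit. No detection calls were used. The fit was tested on simulated data.

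The members, lists, alternatives and rule for named genes were chosen with earlier results of these data known. The rule named members at least 2-fold changed, the largest called rise and fall of each role, a set of genes (Ulk1, Becn1, Atg5, Atg7, Atg9a, Map1lc3b, Gabarap, Gabarapl1, Lamp1, Lamp2, Tfeb and Tfe3), the 3 largest called differences of each list, paralogous pump subunits and small counts. Other genes were named after their values were seen. Alternatives tried were a fit without trend, robust variance, renewed quantile normalization, genes above the median level, averaged probe sets, no _x_at or _s_at probe sets, a block for the replicate number, each of the arrays left out, a stricter threshold, a 2-fold threshold and every probe set tested.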

Additional observations from a re-analysis of the deposited data

How the results depend on the processing

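Of the 35 called members, 26 kept their direction and call in each of the 7 other fits and the 4 fits with an array left out, as far as these kept the gene, and 0 reversed. The 9 that lost a call were Atg5, Atg10, Atg12, Atg4b, Atg4d, Ulk4, Wipi2, Map1lc3a and Atp6v1e1. With an array left out, between 20 and 21 members were higher, between 11 and 13 lower, and the median difference lay between 0.033 and 0.12. With the replicate number as a block (replicate block), 21 were higher and 14 lower, as without it, and no call of a member changed. In the labels, same-numbered samples shared only a number. Their deviations correlated at -0.017 across genes, a value that cannot tell whether they shared a culture or a batch.

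By probe set, 41 of 127 were higher and 20 lower, and at least 2-fold changes left 4 higher and 4 lower members. Among genes above the median level 0 genes of initiation were called higher, because Ulk2 and Ulk4 lie below that level and were not in that fit. From the mean of probe sets 1 gene of initiation and 1 gene of the membrane step were called higher. Without _x_at and _s_at probe sets 1 accessory gene remained, because the only probe set of Atp6ap1 ends in _s_at. Without the intensity trend, 2 genes of the mTORC1 list were lower. With an array left out, counts lay between 1 and 2 for initiation genes higher, 3 and 6 for conjugation genes lower, 3 and 5 for pump partners lower, 2 and 4 for mTORC1 genes lower, and 2 and 4 for autophagy partners higher. Signs of genes that were not called turned for Map1lc3b (0.12, mean of probe sets), Becn1 (-0.025 without _x_at and _s_at probe sets, and from -0.037 to 0.16 with an array left out) and Atg7 (from -0.061 to 0.16 with an array left out). Apart from genes left out of a fit, the cause of these changes was not tested. Signal near the first quartile, as for Lamp5, limits what could be seen.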

Other observations

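Of the 57 genes, 5 lie on the X chromosome in the RefSeq table, and 4 of them rose: Lamp2, Atp6ap1, Atp6ap2 and Tfe3. The fifth, Atg4a, was not called (-0.13 ± 0.11, SE). Among all genes above the median level, 48.3% of 298 on the X chromosome were called higher and 26.5% lower, against 28.4% and 34.0% of 8783 on autosomes. The median log2 difference was 0.22 for these X-linked genes and -0.042 for the autosomal ones. Of the 52 autosomal members, 17 rose and 14 fell. Xist, the RNA that coats an inactive X chromosome, was at 7.31 and 7.27 at day 0 and at 6.54 and 6.47 at day 3 by the probe set with the highest mean (-0.78 ± 0.10), and its other 2 probe sets lay below the first quartile on all arrays. The sex of the cells was not given in the sources used here, and a part of the X chromosome in the rises of these 4 genes was not tested.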
